A study of Mus musculus with 9 samples.

Results

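The 6 genes that liver biology places in periportal hepatocytes, *Hal*, *Sds*, *Gls2*, *Hsd17b13*, *Etnppl* and *Aldh1b1*, were followed through the livers of mice treated with oleanolic acid (OA) with or without an inhibitor of heme oxygenase-1 (HO-1). The members were the 6 rows of the deposited gene table that carry these names, of 36119 genes in all. All 6 passed the filter on low counts and were tested. The 9 libraries came from male wild-type C57BL/6J mice, 3 per group, aged 6 to 8 weeks and fasted for 12 h before killing. The Cont group received corn oil, the vehicle, by gavage. The OA group received oleanolic acid by gavage, at 295.5 mg/kg in the sample titles and 295.92 mg/kg in the treatment protocol, to induce cholestatic liver injury. The ZnPP+OA group received protoporphyrin IX zinc, the HO-1 inhibitor, at 20 mg/kg intraperitoneally 2 h before each dose of OA. Cont and OA mice received saline instead, and all treatments ran for 4 consecutive days. No group received ZnPP alone, so the action of ZnPP without OA was not analysed here.

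Hepatocytes are not alike along the path of the blood through a liver lobule. Those next to the portal tract, the periportal cells, receive blood rich in oxygen and nutrients and are known for amino acid breakdown, gluconeogenesis and urea synthesis, while pericentral cells around the central vein are known for glutamine synthesis and drug metabolism. The 6 genes fall into 3 roles. *Hal* (histidine ammonia-lyase), *Sds* (serine dehydratase) and *Gls2* (liver-type glutaminase) each release ammonia from an amino acid. *Etnppl* (ethanolamine-phosphate phospho-lyase) breaks phosphoethanolamine into acetaldehyde, phosphate and ammonia, and *Aldh1b1* encodes a mitochondrial aldehyde dehydrogenase that can oxidise acetaldehyde. *Hsd17b13* encodes a protein of the lipid droplet surface, for which a retinol dehydrogenase activity is known from the human enzyme.

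Each library was a poly(A)-selected measure of whole-liver RNA with 32639438 to 85060187 counts. Mitochondrially encoded transcripts, with 7 copies of them on chromosome 1, took 53.7% to 92.0% of the counts in Cont, 17.4% to 47.5% in OA and 74.1% to 84.3% in ZnPP+OA. All other genes were left with 4946748 counts in Cont 2, the fewest, and 70295836 in OA 3, the most. Levels are therefore given as CPM, the counts of a gene set against a common library size after scaling by TMM factors, which ranged from 0.265 to 2.53. With this scaling the 18895 tested genes had a median log2 fold change of 0.09 when OA was compared with Cont and of -0.07 when ZnPP+OA was compared with OA. Dividing by library totals alone moved these medians to 1.48 and -1.85, so a direction read on that scale differs from one read against the median gene. A gene was called when the adjusted p of edgeR's quasi-likelihood test was under 0.05.

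The upstream sequences of 3 members are shown because *Hal* and *Etnppl* were called in both comparisons with OA and *Hsd17b13* in neither. RefSeq windows were matched for 4 of the 6 members (*Hal*, *Hsd17b13*, *Etnppl* and *Aldh1b1*), and the 250 bases before the start site are printed 5′ to 3′ on the gene's strand in GRCm38.p6. *Hal* lies at chr10:93488518-93488767 on the plus strand, the upstream of 2 listed starts of *Etnppl* at chr3:130617198-130617447 on the plus strand, and *Hsd17b13* at chr5:103977389-103977638 on the minus strand. Capitals mark matches to any of 6 motifs searched on both strands. For hormone signals the letters were TGACG, a core of the cAMP response element, and AGAACA, a core of the glucocorticoid receptor site. For the Wnt pathway they were CTTTGAT, bound by proteins of the TCF family. For hepatocyte factors they were GTTAAT, a core of HNF1 sites, and CAAAGTC, of the HNF4 type. The TATA box was searched as TATAAA.
Hal: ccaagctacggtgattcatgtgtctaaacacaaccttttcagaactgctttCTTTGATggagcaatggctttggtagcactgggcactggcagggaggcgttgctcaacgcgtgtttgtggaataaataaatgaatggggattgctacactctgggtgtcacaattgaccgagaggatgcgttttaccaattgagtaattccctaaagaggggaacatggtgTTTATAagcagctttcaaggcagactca
Etnppl: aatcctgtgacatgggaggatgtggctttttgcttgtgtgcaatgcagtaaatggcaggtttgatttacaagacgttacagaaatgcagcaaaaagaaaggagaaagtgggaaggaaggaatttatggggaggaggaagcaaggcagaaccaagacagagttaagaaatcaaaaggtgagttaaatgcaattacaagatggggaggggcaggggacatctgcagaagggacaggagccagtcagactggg
Hsd17b13: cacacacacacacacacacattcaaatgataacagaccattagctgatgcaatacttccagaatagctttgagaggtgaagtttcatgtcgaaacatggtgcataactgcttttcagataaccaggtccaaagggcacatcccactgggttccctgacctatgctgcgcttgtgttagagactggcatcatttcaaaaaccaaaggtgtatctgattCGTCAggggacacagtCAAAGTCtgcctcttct
The *Hal* window held CTTTGAT at base 52 and, on the other strand, TATAAA at base 223, counted from its 5′ end. In the *Hsd17b13* window TGACG matched on the other strand at base 218 and CAAAGTC at base 234. The printed *Etnppl* window held none of the 6 motifs, and the window of its other start held GTTAAT at base 245. No match was found in the *Aldh1b1* window. Of 32851 windows of the same length, 17.8% held TGACG, 16.1% AGAACA, 3.21% CTTTGAT, 6.43% GTTAAT, 3.84% CAAAGTC and 12.4% TATAAA. None of the matches overlapped another, and no motif was shared by the windows of *Hal* and *Etnppl*.

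The first comparison asked how OA changed these genes in liver. *Hal* and *Etnppl* fell with OA, which makes 2 of 6 members called lower and 0 called higher, where 2.80% of all tested genes were called lower, 2.40% higher and 5.21% in either direction. The median log2 fold change of the 6 members was -1.32, against 0.09 for all genes. *Gls2* and *Sds* had fold changes below 0 that did not pass the test, and *Hsd17b13* and *Aldh1b1* had values above 0 that did not pass either. In whole liver, fewer periportal cells and less RNA per periportal cell cannot be told apart.

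*Hal*, on chromosome 10, catalyses the first step of histidine breakdown, the deamination of histidine to urocanate. Its level was 108, 44.6 and 75.2 CPM in Cont 1 to Cont 3. In the OA libraries it was 14.5, 10.8 and 9.42 CPM. The 3 OA values lay close together and all below the lowest Cont value. The log2 fold change was -2.71 ± 0.41 (SE), with an adjusted p of 0.00332 by edgeR, for 3 against 3 livers. Leaving out any 1 of the 9 libraries kept the call, with log2 fold changes between -2.95 and -2.35. On library totals alone the value was -1.50, with an adjusted p of 0.136.

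*Etnppl*, on chromosome 3, stood at 18.1, 37.2 and 26.2 CPM in Cont and at 10.8, 4.09 and 10.3 CPM in OA. Every OA library was below every Cont library, with OA 2 the lowest. The log2 fold change was -1.69 ± 0.40 with an adjusted p of 0.0298 by edgeR. This call was nearer the threshold than that of *Hal*. On library totals alone the value was -0.13 (adjusted p 0.895) and on log2(FPKM + 1) it was -0.064 (0.902 by limma). It was lost without Cont 2 (adjusted p 0.0988), OA 2 (0.140), OA 3 (0.0890), ZnPP+OA 1 (0.0555) or ZnPP+OA 3 (0.0519), each a refit of edgeR with the value still below 0. Without Cont 2, the library with 92.0% mitochondrial counts, *Hal* was therefore the only member called. In that refit 271 of 20581 genes were called higher and 385 lower. With Cont 1 and Cont 2 left out together the log2 fold change of *Hal* was -2.66.

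*Gls2*, on chromosome 10, encodes the glutaminase that frees ammonia from glutamine in liver mitochondria. Its CPM were 79.2, 48.1 and 77.5 in Cont and 35.7, 21.9 and 17.1 in OA. The groups did not overlap, but the log2 fold change of -1.46 ± 0.41 had an adjusted p of 0.0620 by edgeR. *Gls2* was called lower by edgeR with RLE scaling (adjusted p 0.0468), no filter (0.0115) and at least 10 counts in every library (0.0257). DESeq2 also called it lower (adjusted p 0.00337). These were 4 of 23 alternatives, and its sign turned on the FPKM scale. The groups did not overlap for 3 of the 6 members (*Hal*, *Etnppl* and *Gls2*, all lower in OA), where 10.6% of all tested genes lay wholly lower and 18.5% wholly higher.

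*Sds*, on chromosome 5, encodes the enzyme that turns serine into pyruvate and ammonia. It measured 74.8, 80.9 and 192 CPM in Cont and 84.7, 35.6 and 32.3 CPM in OA. OA 1 was above Cont 1 and Cont 2, so the groups overlapped. The fitted log2 fold change was -1.19 ± 0.51 with an adjusted p of 0.198 by edgeR.

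The remaining pair did not share the lower values. *Hsd17b13*, on chromosome 5, read 106, 60.0 and 213 CPM in Cont and 174, 196 and 205 CPM in OA. The Cont libraries spanned both the lowest and the highest of these, and the log2 fold change of 0.60 ± 0.40 had an adjusted p of 0.414 by edgeR. *Aldh1b1*, on chromosome 4, read 7.38, 4.33 and 5.02 CPM in Cont and 3.50, 9.65 and 8.46 CPM in OA. Here the OA libraries spanned the whole range of Cont, and the log2 fold change was 0.37 ± 0.40 with an adjusted p of 0.653. It was also the member with the fewest counts, with 71 in Cont 2.

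**Figure D1:**
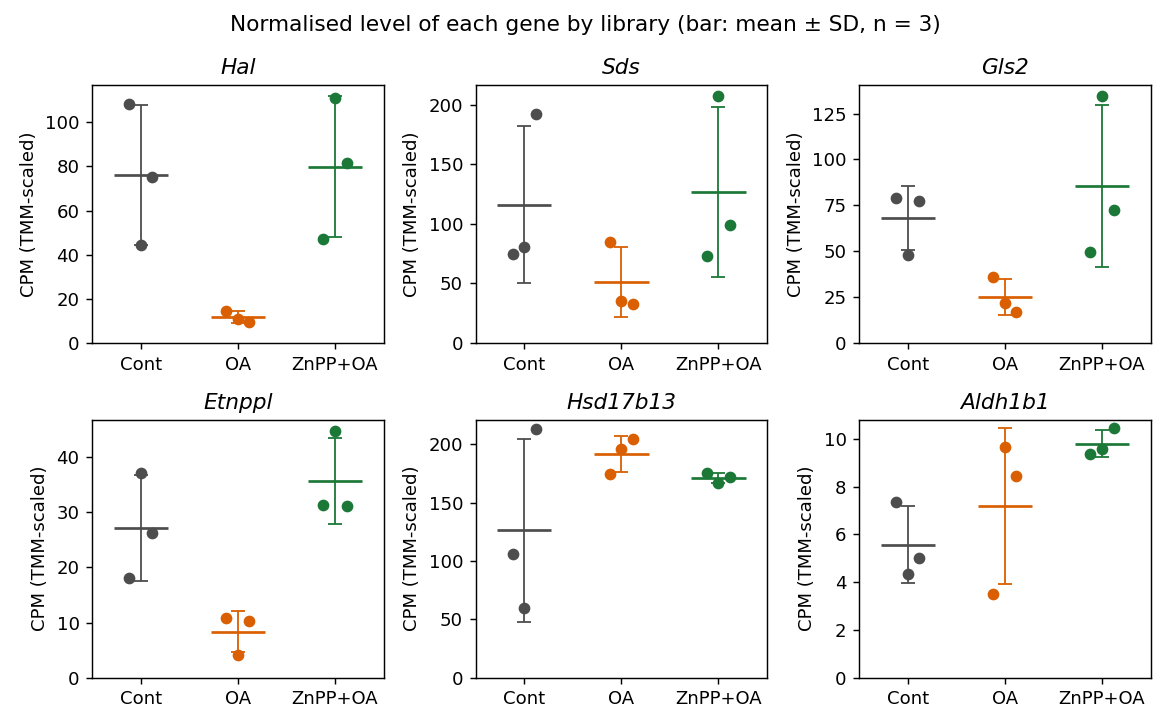
Normalised level (CPM scaled by TMM, linear axes from 0) of the 6 genes in the 9 livers, with 1 point per library and bars for the mean and SD of each group (n = 3). The 3 OA points of Hal, between 9.42 and 14.5 CPM, lie below all Cont and ZnPP+OA points, while those of Hsd17b13 lie within the range of Cont.

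The second comparison asked how inhibition of HO-1 before OA changed the response. *Hal*, *Etnppl* and *Gls2* were higher in ZnPP+OA than in OA, which makes 3 of 6 members called higher and 0 called lower, where 1.60% of all tested genes were called higher, 1.26% lower and 2.87% in either direction. The members' median log2 fold change was 1.55, against -0.07 for all genes. This comparison and the first share the OA libraries, so a low value in OA enters both with opposite signs.

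*Hal* was at 47.0, 111 and 81.4 CPM in ZnPP+OA. The lowest of these was over 3 times the highest OA value of 14.5 CPM. The log2 fold change was 2.78 ± 0.41 with an adjusted p of 0.00682 by edgeR. The call was lost without OA 2 (adjusted p 0.0539), and held with each of the other 8 libraries left out. On library totals alone the value was 0.96 (adjusted p 0.297) and on log2(FPKM + 1) it was 0.80 (0.222 by limma).

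*Etnppl* was at 31.4, 44.8 and 31.2 CPM with ZnPP. All 3 were above the OA libraries, and the log2 fold change was 2.09 ± 0.41 with an adjusted p of 0.0184 by edgeR. *Gls2* was at 49.3, 135 and 72.4 CPM, with ZnPP+OA 2 the highest of all 9 libraries. Its log2 fold change was 1.78 ± 0.42 with an adjusted p of 0.0399, again without overlap between the groups, but on library totals alone the sign turned (-0.06). *Etnppl* was at 0.29 on that scale (adjusted p 0.760) and at 0.26 on log2(FPKM + 1) (0.608 by limma). Both calls were lost in edgeR refits without OA 2 (adjusted p 0.0940 for *Etnppl* and 0.202 for *Gls2*), OA 3 (0.0744 and 0.218), ZnPP+OA 2 (0.113 and 0.225) or ZnPP+OA 3 (0.0603 and 0.105). Without OA 2, 0 of the 6 members were called, where 32 of 20172 tested genes were called higher and 13 lower.

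*Sds* was at 72.8, 207 and 98.8 CPM in ZnPP+OA, and OA 1 lay inside that range. The log2 fold change was 1.31 ± 0.52 with an adjusted p of 0.194 by edgeR. *Hsd17b13* was at 175, 167 and 172 CPM, the narrowest spread of any member in any group. Its log2 fold change of -0.16 ± 0.40 was within 1 SE of 0 (adjusted p 0.887). *Aldh1b1* was at 9.39, 9.60 and 10.4 CPM, above 2 of the OA libraries and overlapping with OA 2, and its log2 fold change was 0.45 ± 0.40 (adjusted p 0.637). Of the 6 members, 3 did not overlap between ZnPP+OA and OA, all higher, where 13.6% of tested genes lay wholly higher and 19.2% wholly lower.

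**Figure D2:**
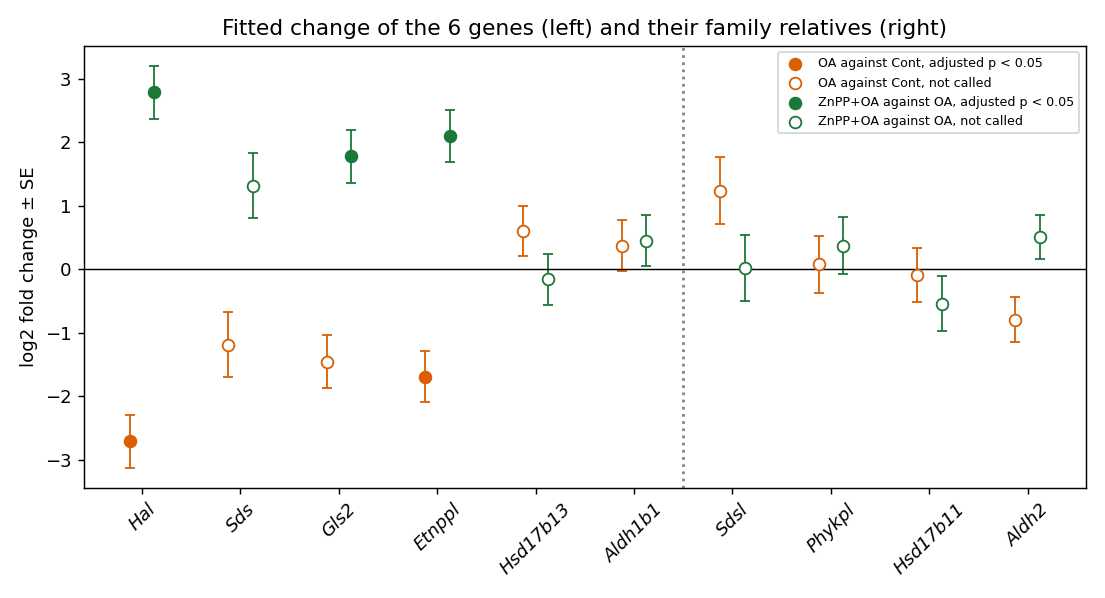
Fitted log2 fold change ± SE from edgeR for the 6 genes (left of the dotted line) and 4 family relatives (right), in the first 2 comparisons (OA with Cont, ZnPP+OA with OA), with filled points for an adjusted p under 0.05. Hal shows the largest values in both comparisons (-2.71 and 2.78), and none of the relatives has a filled point.

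The third comparison set ZnPP+OA against Cont. No member was called, and 0% of all tested genes were called by edgeR, where the lowest adjusted p was 0.571 and 1542 genes had an unadjusted p under 0.05. DESeq2 on the same genes called 54 higher and 86 lower, again with 0 of the 6 members. *Hal* differed by 0.07 ± 0.39 on the log2 scale and *Sds* by 0.12 ± 0.51, both much less than the spread within either group. *Gls2* differed by 0.32 ± 0.41, *Etnppl* by 0.40 ± 0.39 and *Hsd17b13* by 0.44 ± 0.40. The log2 fold change of *Aldh1b1*, 0.81 ± 0.41, had an adjusted p of 0.618 by edgeR, although all 3 ZnPP+OA libraries were above all Cont libraries. It was the 1 member without overlap, where 5.74% of all tested genes lay wholly higher and 4.52% wholly lower. A p above the threshold does not show that these groups were equal.

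Levels of different genes were compared by FPKM, which also divides by gene length. FPKM as deposited move with the share of mitochondrial counts in a library, so only the order within a library was read. In Cont the mean FPKM was 61.9 ± 62.8 (SD, n = 3) for *Sds* and 56.2 ± 54.9 for *Hsd17b13*, and *Sds* was the higher in 2 of 3 libraries, so this pair was not separated. *Gls2* (16.97 ± 11.9) and *Hal* (12.1 ± 8.79) followed in all 3 libraries. *Etnppl* (2.29 ± 1.31) and *Aldh1b1* (2.01 ± 1.36) were last and were not separated, with *Etnppl* higher in 2 of 3 libraries.

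The order differed in OA. *Hsd17b13* was first in all 3 OA libraries, at a mean of 188 ± 46.0 FPKM (SD, n = 3), ahead of *Sds* at 58.9 ± 22.3 and *Gls2* at 14.4 ± 2.87. *Aldh1b1* at 6.88 ± 3.74 FPKM stood above *Hal* at 4.27 ± 0.208 in 2 of 3 libraries, and *Etnppl* at 2.09 ± 0.937 was last in all 3. In ZnPP+OA *Hal* again stood between *Gls2* and *Aldh1b1*, at 8.38 ± 2.32 FPKM against 2.63 ± 0.692 for *Aldh1b1*, and it was the higher of these in all 3 libraries. *Hsd17b13* (48.9 ± 12.5) was above *Sds* (41.8 ± 12.6) in 2 of 3 libraries, and the last pair, *Aldh1b1* and *Etnppl* (2.56 ± 0.130), again did not separate.

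Ranks within a library do not depend on any scaling. Among 18390 protein-coding genes ranked by FPKM, with rank 1 the highest, *Hal* was at ranks 778, 1521 and 1061 in Cont, 4433, 5472 and 5999 in OA, and 1561, 705 and 962 in ZnPP+OA. *Gls2* ran from 657 to 895 in Cont, from 1304 to 2786 in OA and from 366 to 921 in ZnPP+OA. *Etnppl* ran from 2557 to 4463, from 6706 to 9840 and from 2360 to 3219. These 3 genes stood further down the order of genes in every OA library than in every other library, as did 17.9% of all 18390 genes. *Sds* ranked between 123 and 773 with overlapping groups. *Hsd17b13* ran from 158 to 429 in Cont, from 151 to 167 in OA and from 178 to 195 in ZnPP+OA, so it was further up in every OA library than in every ZnPP+OA library. *Aldh1b1* ran from 3408 to 5007, from 3170 to 6207 and from 2763 to 3029, and stood further up in ZnPP+OA than in both other groups. Counted by comparison, 3 members were wholly further down in OA than in Cont and 0 further up, where 23.2% and 12.5% of all genes were. In ZnPP+OA against OA 4 members were wholly further up and 1 further down, where 26.8% and 14.0% of all genes were. In ZnPP+OA against Cont 1 was further up and 0 further down, where 4.56% and 6.06% of all genes were.

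**Figure D3:**
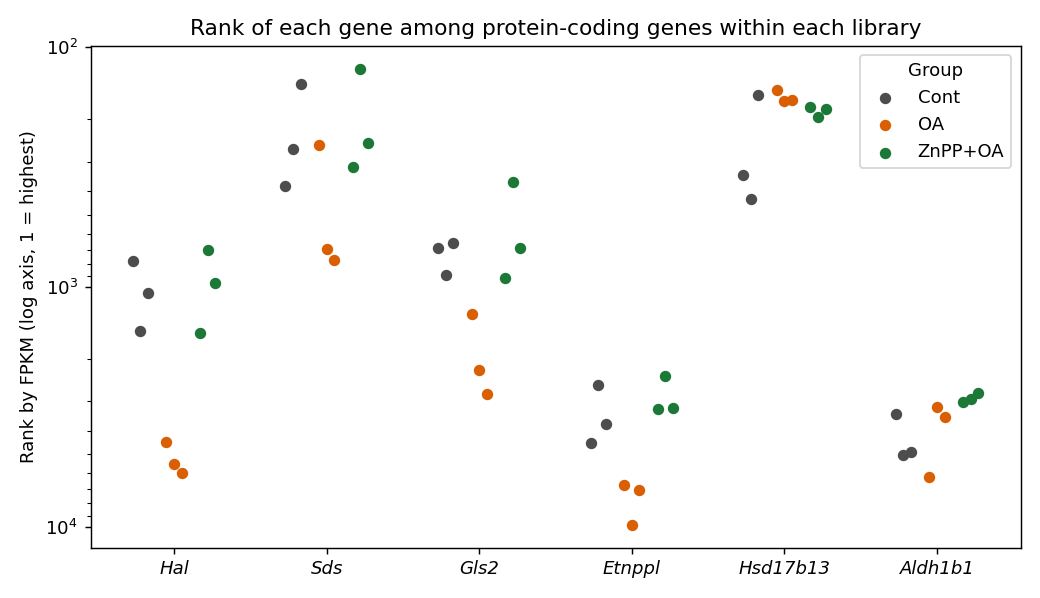
Rank of the 6 genes by FPKM among 18390 protein-coding genes within each library (log axis, inverted, so that the most abundant genes are at the top), with 1 point per library coloured by group. Hal, Gls2 and Etnppl sit lower in the 3 OA libraries than in the other 6, while Hsd17b13 stays between ranks 151 and 429.

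Ratios of 2 members within a library are likewise free of scaling. The ratio of *Hal* to *Hsd17b13* (in FPKM) was 0.396, 0.288 and 0.137 in Cont. It was 0.0324, 0.0215 and 0.0179 in OA and 0.104, 0.259 and 0.184 in ZnPP+OA. *Hal* thus lost ground to *Hsd17b13* in every OA library. The ratio of *Hal* to *Gls2* was 0.856, 0.579 and 0.608 in Cont, 0.255, 0.310 and 0.346 in OA, and 0.597, 0.516 and 0.704 in ZnPP+OA, so *Hal* was also lower relative to a gene with the same direction. By contrast, the ratio of *Sds* to *Gls2* overlapped between Cont (1.94 to 5.08) and OA (3.33 to 4.87). Over the 15 pairs of members, 8 had ratios that did not overlap between OA and Cont, where 30.5% of all pairs among 11743 expressed protein-coding genes did not. For ZnPP+OA against OA it was 8 of 15 against 35.8%, and for ZnPP+OA against Cont 0 of 15 against 11.5%. The pairs share genes and are not independent of each other.

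*Sds*, *Hsd17b13*, *Etnppl* and *Aldh1b1* were then each set beside a relative of the same enzyme family. None of the 4 relatives (*Sdsl*, *Hsd17b11*, *Phykpl*, *Aldh2*) was called in any of the 3 comparisons. Their log2 fold changes for OA against Cont were 1.23 ± 0.53 for *Sdsl*, -0.10 ± 0.43 for *Hsd17b11*, 0.07 ± 0.45 for *Phykpl* and -0.80 ± 0.35 for *Aldh2*. For ZnPP+OA against OA they ran from -0.54 (*Hsd17b11*) to 0.50 (*Aldh2*).

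The ratio of *Sds* to *Sdsl*, a serine dehydratase-like gene, was, in FPKM, 19.5, 23.5 and 10.8 in Cont, 4.48, 1.51 and 1.89 in OA, and 3.09, 13.8 and 4.56 in ZnPP+OA. It was lower in every OA library than in every Cont library, although neither gene alone was called. Among all pairs of expressed protein-coding genes, the ratios of 30.5% did not overlap between OA and Cont. The share was 35.8% between ZnPP+OA and OA and 11.5% between ZnPP+OA and Cont. *Etnppl* to *Phykpl*, which encodes the phospho-lyase of hydroxylysine, gave 8.79, 9.56 and 2.92 in Cont, 2.07, 0.857 and 1.71 in OA, and 4.82, 6.44 and 4.49 in ZnPP+OA. All 3 OA values of this ratio lay below those of the other libraries, whereas for *Sds* to *Sdsl* OA and ZnPP+OA overlapped. *Aldh1b1* to *Aldh2*, the main mitochondrial acetaldehyde dehydrogenase, ran from 0.0317 to 0.0461 in Cont, from 0.0536 to 0.122 in OA and from 0.0744 to 0.0939 in ZnPP+OA. *Hsd17b13* to *Hsd17b11*, another lipid droplet protein, ran from 3.08 to 6.02, from 5.42 to 13.3 and from 9.56 to 9.89. With 3 against 3 the exact two-sided permutation test of a log2 ratio cannot go below p = 0.1, and after adjustment over the 12 tests the smallest value was 0.200, so none passed.

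**Figure D4:**
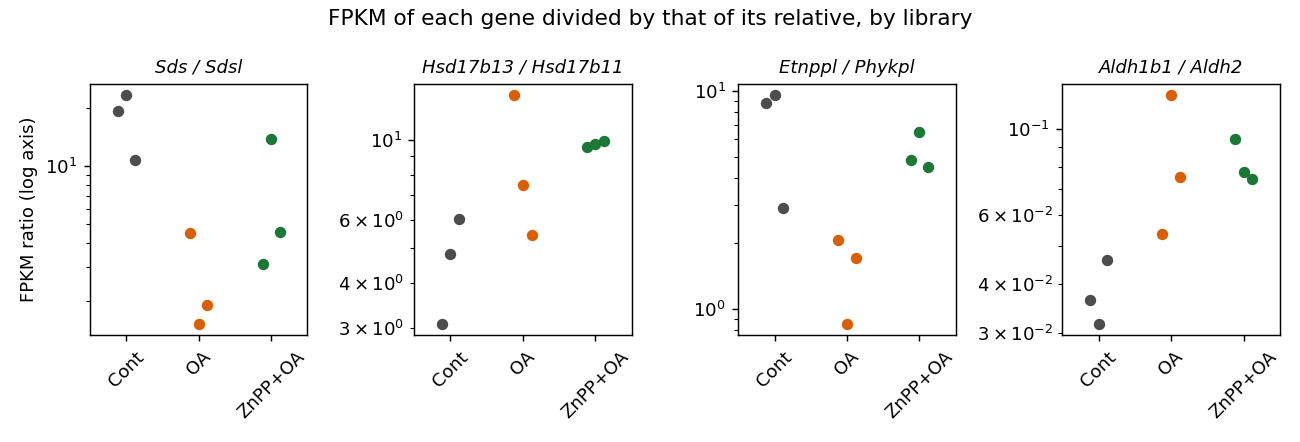
FPKM of 4 genes divided by that of a family relative in the same library (log axes, 1 point per library, coloured by group). The ratios of Sds to Sdsl and of Etnppl to Phykpl lie lower in all 3 OA libraries than in all 3 Cont libraries, and the ratio of Aldh1b1 to Aldh2 lies higher. Ratios of 30.5% of all pairs of expressed protein-coding genes did not overlap between OA and Cont.

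The members' profiles over the 9 libraries were compared as centred log2 CPM. *Gls2* and *Sds* were the most alike pair, with a root mean square difference of 0.397, followed by *Gls2* and *Hal* (0.551) and *Aldh1b1* and *Hsd17b13* (0.620). The least alike pair was *Hal* and *Hsd17b13* (1.59). *Hal* had the widest range over all libraries, 3.56 on the log2 scale, and *Aldh1b1* the narrowest, 1.57. Within groups the widest range was that of *Hsd17b13* in Cont (1.83), and the narrowest that of the same gene in ZnPP+OA (0.07).

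Among 14666 tested protein-coding genes, those with the profile nearest to *Hal* were *Haao* (root mean square difference 0.244), *Sardh* (0.278) and *Slc6a12* (0.300). *Haao* encodes an oxygenase of tryptophan breakdown, *Sardh* the sarcosine dehydrogenase and *Slc6a12* a betaine carrier. *Haao* was at 190, 122 and 147 CPM in Cont, 38.9, 19.4 and 18.9 CPM in OA, and 101, 180 and 157 CPM in ZnPP+OA. *Haao* was picked as the nearest of all these genes, other members included, so its closeness and like levels follow from that choice.

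Nearest to *Gls2* were *Itih1* (0.258), *Mmaa* (0.262) and *Col18a1* (0.267), and to *Sds* they were *Apol7a* (0.192), *Slc38a3* (0.252) and *Masp2* (0.285). *Slc38a3* encodes a glutamine carrier of the plasma membrane. It was at 215, 164 and 415 CPM in Cont, 172, 113 and 93.8 CPM in OA, and 222, 638 and 271 CPM in ZnPP+OA. For *Etnppl* the nearest genes were *Xylb* (0.345), *Ppp1r16b* (0.347) and *Tmie* (0.359), and for *Aldh1b1* they were *Ero1b* (0.288), *Casp9* (0.291) and *Nomo1* (0.309). *Tbpl1* (0.175), *Gpr146* (0.181) and *Tada2b* (0.193) were nearest to *Hsd17b13*, and none of these 3 was called in either comparison with OA. These distances describe 9 livers that share groups and depth and carry no test. The neighbours were picked by these same values, so their like levels and calls follow from that choice.

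Of 13 other periportal genes, 4 fell and 1 rose with OA, where 2.80% and 2.40% of all tested genes were called so. *Cyp2f2* (-3.11 ± 0.42, adjusted p 0.00181), a P450 enzyme, *Pigr* (-3.91 ± 0.58, 0.00303), the carrier of polymeric immunoglobulin into bile, *Asl* (-2.36 ± 0.39, 0.00527), an enzyme of the urea cycle, and *G6pc* (-2.01 ± 0.38, 0.0108), which releases free glucose, were lower in OA by edgeR. *Apoa4*, an apolipoprotein, was higher (2.21 ± 0.54, 0.0334). The same 5 genes were called in the opposite direction in ZnPP+OA against OA, with *Asl* at 2.78 ± 0.40 (adjusted p 0.00605) and *Apoa4* at -2.29 ± 0.54 (0.0409). In that comparison 1.60% of all tested genes were called higher and 1.26% lower. The list median was -0.83 with OA and 0.66 with ZnPP, so not all periportal genes had the size of change of *Hal*.

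Lower values with OA were not particular to periportal genes. Of 12 pericentral genes, 7 fell with OA and 0 rose (median -2.28), where 2.80% of all tested genes were called lower and 2.40% higher. Among the 7 were *Cyp2e1* (-4.41 ± 0.67, adjusted p 0.00325 by edgeR), a P450 enzyme, and *Glul* (-2.51 ± 0.38, 0.00322), the glutamine synthetase. In ZnPP+OA against OA 6 of the 12 rose and 0 fell (median 1.58), where 1.60% of all tested genes were called higher and 1.26% lower. *Glul* was at 424, 217 and 192 CPM in Cont, 39.5, 44.0 and 62.7 CPM in OA, and 135, 169 and 169 CPM in ZnPP+OA. *Gls2*, which opens glutamine, and *Glul*, which makes it, thus both had their lowest values in OA. Of the 8 glutamine and glutamate enzymes and carriers listed beside *Gls2*, *Glul* was the 1 called in either comparison.

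The 3 enzymes after *Hal* in histidine breakdown were not called. *Amdhd1*, the imidazolonepropionase, was at 68.3, 27.1 and 77.8 CPM in Cont and 23.4, 24.8 and 16.0 CPM in OA (log2 fold change -1.43 ± 0.42, adjusted p 0.0710 by edgeR). *Uroc1*, the urocanate hydratase, and *Ftcd*, the formimidoyltransferase, had -0.39 ± 0.40 and -0.32 ± 0.43. In ZnPP+OA all 3 lay above every OA library, with log2 fold changes of 1.67 ± 0.43, 1.25 ± 0.40 and 1.02 ± 0.43 and adjusted p of 0.0568 to 0.234, where 13.6% of all tested genes lay wholly higher. *Hal* had the lowest log2 fold change of the 4 steps with OA and was the 1 that was called.

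The lists around the other members differed in their calls. None of the 8 tested genes of serine and threonine metabolism beside *Sds* was called in either comparison, and none of the 8 phosphoethanolamine genes beside *Etnppl*. Of all tested genes, 5.21% were called with OA and 2.87% in ZnPP+OA against OA. Of 8 tested 17-beta-hydroxysteroid dehydrogenases, *Hsd17b6* fell with OA (-2.44 ± 0.58, adjusted p 0.0313 by edgeR). Of 18 other aldehyde dehydrogenases, 3 fell with OA, *Aldh8a1* (-1.41 ± 0.27, 0.0115), *Aldh1l1* (-2.02 ± 0.39, 0.0117) and *Aldh7a1* (-1.34 ± 0.36, 0.0472). Of all tested genes, 2.80% were called lower with OA. The first 2 were higher in ZnPP+OA than in OA (1.35 ± 0.27 and 1.68 ± 0.38), where 1.60% of all tested genes were called higher.

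Markers of some other cells moved with the groups. Of 8 general hepatocyte markers, *Serpinc1* (-1.65) and *Ttr* (-1.82) fell with OA, where 2.80% of all tested genes were called lower. The rest were not called, with log2 fold changes from -1.22 (*Alb*) to 0.39 (*Trf*). The summed level of the list ran from 20226 to 63131 CPM in Cont, from 15435 to 28352 in OA and from 20109 to 26232 in ZnPP+OA. All 6 Kupffer cell markers lay higher in every OA library than in every Cont library, where 18.5% of all tested genes did. Of these 6 markers 4 were called higher, where 2.40% of all tested genes were. The list sums were 138 to 317 CPM in Cont, 585 to 879 in OA and 219 to 329 in ZnPP+OA. All 6 monocyte and macrophage markers also lay wholly higher in OA, with 3 called and sums of 44.1 to 67.7, 133 to 271 and 52.2 to 83.2 CPM. Neutrophil markers (1 of 5 tested called) summed to 3.72 to 17.02, 18.7 to 63.6 and 12.1 to 16.1 CPM, with *Ly6g* at 0 counts in all Cont libraries. Cholangiocyte markers (1 of 6 called, *Spp1*) summed to 44.8 to 97.7, 166 to 288 and 134 to 167 CPM. *Spp1* made up most of these sums, with means of 55.6 CPM in Cont and 221 CPM in OA. Of the 6, 4 lay wholly higher in OA than in Cont, while *Krt19* and *Krt7* overlapped. In ZnPP+OA against OA 1 lay wholly higher (*Krt7*) and 2 wholly lower, where 13.6% and 19.2% of all tested genes did. Of the stellate and the sinusoidal endothelial markers none was called, with sums in OA of 183 to 277 and 61.6 to 107 CPM against 95.6 to 167 and 37.5 to 88.2 in Cont. In ZnPP+OA these sums were 139 to 172 and 33.9 to 44.5 CPM. The endothelial sums overlapped between OA and Cont. The part of these shifts, and of the mitochondrial share, in the members' values was not tested.

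The members were also read against the median of all genes under other scalings. For OA against Cont the log2 fold change of *Hal* minus that median was -2.80 with TMM, -2.97 with library totals alone and -2.103 on log2(FPKM + 1). The corresponding differences were -1.78, -1.61 and -1.25 for *Etnppl*. They were -1.55, -1.71 and -1.07 for *Gls2*, and -1.28, -1.54 and -0.73 for *Sds*. These 4 genes lay below the median gene on the 3 scales, and *Hsd17b13* and *Aldh1b1* lay above it. On log2(FPKM + 1) without a filter, which tests 32307 genes in place of 10696, *Sds* (0.34) and *Gls2* (0.0077) did not lie below it, while *Hal* (-1.03) and *Etnppl* (-0.18) did. For ZnPP+OA against OA on that scale *Sds* was at -0.32 and *Aldh1b1* at -0.85 against the median, where both were above it with TMM. On log2(FPKM + 1) the members called with OA were *Hsd17b13* (2.39, adjusted p 0.0115 by limma) and *Aldh1b1* (1.37, 0.0162), both higher, where 68.7% of all genes tested in that fit were called higher and their median was itself 1.19.

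**Figure D5:**
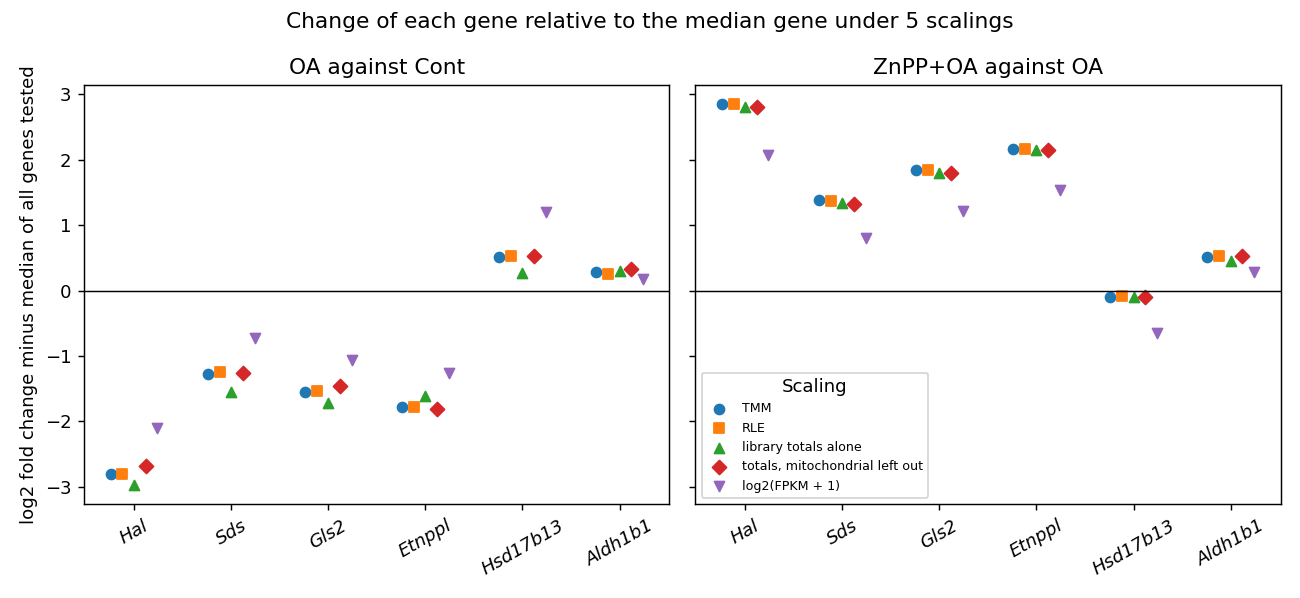
Log2 fold change of the 6 genes minus the median of all genes tested, under 5 scalings (marker shapes), with OA against Cont on the left, ZnPP+OA against OA on the right, and 0 marking the median gene. Hal, Sds, Gls2 and Etnppl lie below 0 on the left and above 0 on the right under each of the 5, and Hsd17b13 and Aldh1b1 lie above 0 on the left.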

How the data were processed

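RNA of 9 livers (3 each of Cont, OA and ZnPP+OA) was sequenced by the authors as poly(A)-selected, stranded paired-end libraries. The deposited table gives counts per gene, not normalised, and FPKM, which the authors scaled by gene length and library depth. Without giving their roles, the submitters' notes list HISAT2 2.2.1, StringTie 2.1.6, cutadapt 1.9, edgeR, DESeq2 and the build mm10. Start and end equal those of GENCODE M21 for 1 of 6 members, so no position of the table is printed. Counts were filtered with filterByExpr (minimum count 10, total 15), given TMM factors and analysed in edgeR 4.0.16 (R 4.3.3) by quasi-likelihood F tests, in 1 fit of the 3 groups, with Benjamini-Hochberg adjustment over 18895 genes and a threshold of 0.05. The code of the fit was also run on counts simulated from its own model with planted changes, which does not test that model. CPM are counts over TMM library sizes, and the prior count of log2 CPM in profiles was 2. Ratios were tested with scipy. Mice are the replicates.

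Named were the 6 members, 4 family relatives (1 more is not reported here), the 3 protein-coding genes nearest in profile to each member, and members of fixed lists (up to 4 per list with the smallest p, other called genes being chosen after their values were seen). Members and lists were chosen with earlier results of these data known. Alternatives were RLE scaling, omission of mitochondrial genes, library totals alone, a minimum of 10 counts in each library, no filter, DESeq2 1.42.0 on the same genes, limma 3.58.1 on log2(FPKM + 1) (FPKM of at least 1 in 3 libraries, or no filter) and on log2(FPKM + 0.1), fits of the 6 compared libraries, a replicate block, and each library left out. Leaving out mitochondrial genes with their 7 nuclear copies (with TMM, or with totals alone), or Cont 1 and Cont 2 together, was chosen after seeing the data. The depth outside mitochondrial genes, 4946748 to 70295836 counts, sets the precision of a level, and the 3 livers per group that of a difference.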

Additional observations from a re-analysis of the deposited data

How the results depend on the processing

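The call of *Hal* with OA held in 19 of 23 alternatives, that of *Etnppl* in 10, and the calls of *Hal*, *Etnppl* and *Gls2* with ZnPP in 18, 15 and 13. *Gls2*, not called with OA in the main fit, was called lower in 4 of the 23. *Sds* was called higher in ZnPP+OA against OA in 1, the edgeR fit without a filter (adjusted p 0.0415). In that fit 708 of 32309 genes were called higher and 762 lower. Members called numbered 1 to 2 for OA against Cont and 0 to 3 for ZnPP+OA against OA when 1 library was left out. Calls over all genes moved as well. Without OA 2, 100 of 20172 genes were called higher and 142 lower in OA against Cont, and 32 and 13 in ZnPP+OA against OA. With library totals alone 0 and 1 (*Hsd17b13*, lower) were called, where 6317 of 18895 genes were called lower in ZnPP+OA against OA. On log2(FPKM + 1) and on log2(FPKM + 0.1) 1 was called in ZnPP+OA against OA (*Hsd17b13*, lower). In these 2 fits 8163 and 6864 of 10696 genes were called lower. On log2(FPKM + 1) without a filter 0 and 0 were called, where 6357 of 32307 genes were called higher and 7629 lower, respectively. In OA against Cont 1 was called with only the 6 compared libraries, where 221 of 17935 genes were called higher and 302 lower. It was also 1 with mitochondrial genes and copies left out and totals alone, where 489 of 17716 genes were called higher and 345 lower.

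Signs turned with library totals alone in ZnPP+OA against OA for *Sds* (-0.51), *Gls2* (-0.058) and *Aldh1b1* (-1.40), and in ZnPP+OA against Cont for *Hal* (-0.54), *Sds* (-0.58), *Gls2* (-0.30) and *Hsd17b13* (-0.21). On log2(FPKM + 1), with or without the filter, they turned in OA against Cont for *Sds* (0.46) and *Gls2* (0.12), in ZnPP+OA against OA for *Sds* (-0.47), *Gls2* (-0.058) and *Aldh1b1* (-0.99), and in ZnPP+OA against Cont for *Hal* (-0.11) and *Sds* (-0.0068). With 0.1 added the values were 0.48 and 0.18, then -0.47, -0.063 and -1.19, and -0.045 for *Hal*. The median of all genes moves on these scales, as given above. Without 1 library the ZnPP+OA against Cont values ran from -0.24 to 0.41 for *Hal*, -0.43 to 0.71 for *Sds* and -0.16 to 0.61 for *Gls2*. Without Cont 1 and Cont 2, *Hsd17b13* was at -0.11 in OA against Cont and -0.32 in ZnPP+OA against Cont, and *Sds* at -0.61 in the latter. The cause of these changes was not tested.

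Libraries of 1 number did not deviate together (correlations -0.10 to 0.01 over 9 pairs). Pairs of different numbers gave -0.05 to 0.10 over 18 pairs. With 3 libraries per group these values cannot exclude that the numbers pair the mice. With a replicate block 1 member was called in OA against Cont and 2 in ZnPP+OA against OA. Of 18895 genes, 259 were called higher and 319 lower in the first, and 192 and 95 in the second. With DESeq2 in place of edgeR 833 genes were called higher and 1609 lower in OA against Cont, and 1005 and 631 in ZnPP+OA against OA, against 454 and 530, and 303 and 239.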

Other observations

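A list of 14 genes of glucagon and glucocorticoid signalling and response, which act on several periportal enzymes in fasting, was followed as well. With OA, 1 of the 14 was called lower (*G6pc*) and 0 higher, where 2.80% and 2.40% of all tested genes were. The list median was -0.43. In ZnPP+OA against OA 1 was called higher and 1 lower, where 1.60% and 1.26% of all tested genes were. The higher one was *G6pc* (1.75 ± 0.38, adjusted p 0.0280 by edgeR), and the lower one was *Igfbp1*. *Igfbp1*, an insulin-like growth factor binding protein made by hepatocytes in fasting, was at 59.1, 29.7 and 88.4 CPM in Cont, 56.5, 286 and 262 CPM in OA, and 42.2, 18.6 and 39.3 CPM in ZnPP+OA. OA 2 and OA 3 stood above all other libraries, and the gene was lower in ZnPP+OA than in OA (log2 fold change -2.59 ± 0.59, adjusted p 0.0337 by edgeR). *Tat*, the tyrosine aminotransferase, was at 112 to 222 CPM in OA and 125 to 238 CPM in Cont, so the groups overlapped. *Aldh1a2*, a retinaldehyde dehydrogenase, had 0 counts in all 3 Cont libraries, 28 to 98 counts in OA and 9 to 64 in ZnPP+OA, and was not called in either comparison with OA.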
